A study of Mus musculus with 20 samples.

Results

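The wild-type arm of a Th17 transfer experiment was examined, comparing CD4 T cells recovered from the colon with the cultured cells put into the hosts. Its members were chosen by library title and are 5 of the 20 libraries of the series, 2 from before transfer and 3 from the colon. The cells were from C57BL/6 mice with the Il17f/Thy1.1 reporter, which puts Thy1.1 on cells that transcribe Il17f, and carried the CD45.1 allele. They were grown for 6 days with irradiated splenic antigen-presenting cells, anti-CD3, TGF-beta at 2.5 ng/ml, hyper-IL-6 (IL-6 fused to its soluble receptor) at 20 ng/ml, and antibodies that block IFN-gamma and IL-4. Cells positive for Thy1.1 were sequenced as the before-transfer libraries, numbered 0 and 1. Of the same kind of cells, 200000 were injected together with 200000 Il6ra-/- cells (CD45.2) into each Rag1-/- host, a mouse without T or B cells of its own, in which such cells cause colitis. Colon libraries 0, 1 and 2 were made 4 weeks later from live CD4+ TCRb+ CD45.1+ cells pooled from hosts. This later sort did not ask for Thy1.1. The gate, the place and the time therefore changed together between stages and cannot be told apart. Library 0 of each stage belongs to experiment 1 and libraries 1 and 2 to experiment 2. The labels give no animal for any library, only pools for the colon, so a p-value here reflects how far libraries of 1 group lie apart, which may be technical.

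Th17 cells are helper T cells driven by IL-6, TGF-beta and IL-23. They make IL-17A, IL-17F, IL-21 and IL-22, guard mucosal surfaces and can cause intestinal inflammation. Their program is known to be plastic, since Th17 cells in inflamed tissue can acquire T-bet and IFN-gamma, and cultured T cells depend heavily on glycolysis and lipid synthesis to grow.

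Gene counts summed to between 14205891 and 23296293 per library. Mitochondrial genes took between 1.56% and 4.28% of them, the highest share in colon library 2, and ribosomal protein genes between 0.938% and 3.13%, the highest in before-transfer library 1. These libraries, called the outlying pair below, were also left out together. Stage separated the 5 libraries on a first principal component with 74.7% of the variance of log2 levels. The labelled identity held in both stages: the summed level of 18 T cell identity genes lay between 10275 and 13261 CPM (counts scaled to a common library total after TMM normalisation) before transfer and between 13174 and 14986 CPM in the colon. Cd4, the helper co-receptor gene, stood at 1421 and 1684 CPM before transfer and 1719, 1805 and 1962 CPM in the colon. Cd3e, which encodes a chain of the T cell receptor complex, was at 392 and 572 CPM before transfer and 461, 453 and 636 CPM in the colon. Neither passed the test described below (edgeR adjusted p = 0.457 and 0.763). Of the 18 identity genes 4 were called higher (2 without colon library 1 or 2) and 2 lower (6 without before-transfer library 0, 1 without colon library 2, and 0 without any 1 of the other libraries).

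Transcripts of other cells moved with stage. Over 17 epithelial marker genes the summed level lay between 43.6 and 116 CPM before transfer and between 234 and 919 CPM in the colon, with 14 called higher and 0 lower. Over 18 myeloid genes it went from between 219 and 233 CPM to between 421 and 801 CPM, with 15 called higher and 1 lower. The 15 were 8 without before-transfer library 1 and 3 without the outlying pair, and the lower call was lost without before-transfer library 1 or colon library 0 or 2. Single markers could be near 0 before transfer, as the examples of Cdh1 and C1qb show. Only 3 of the 17 epithelial and 1 of the 18 myeloid genes had no count there. Cdh1, the epithelial cadherin gene, stood at 0.0939 and 0.0496 CPM before transfer and 61.7, 33.2 and 31.2 CPM in the colon. C1qb, a complement gene of macrophages, was at 0 and 0.0496 CPM before transfer and 6.26, 16.9 and 8.44 CPM in the colon. Stromal and endothelial genes went from between 131 and 141 CPM to between 133 and 188 CPM with 5 of 10 higher and 1 lower, and 5 of 5 erythroid genes were higher but summed to between 4.77 and 11.5 CPM. B and plasma cell genes went the other way, from between 58.4 and 145 CPM to between 17.3 and 30.9 CPM, with 4 of 8 tested lower. Of 2 mast cell genes tested, 1 was higher and 0 lower (2 higher without before-transfer library 0, and 0 higher and 1 lower without before-transfer library 1), and the sum lay between 10.8 and 70.5 CPM before and between 22.9 and 27.5 CPM in the colon. In such bulk libraries fewer cells of a type and less RNA per cell cannot be told apart. The part of these cells in the results that follow was not tested.

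Of 14225 genes tested, 2433 (17.1%) were called higher and 2249 (15.8%) lower in the colon at a Benjamini-Hochberg adjusted p under 0.05 in edgeR's quasi-likelihood test. Together this is 32.9% of the genes, and the median log2 fold change of all genes was -0.02. Changes of at least 8-fold were found for 953 higher and 575 lower genes. The groups did not overlap for 4640 of the 4682 called genes, against 55% of all genes tested, and 4665 of them had the same sign in both experiments. Both counts come from the libraries that gave the calls, so neither is separate support for them.

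**Figure D1:**
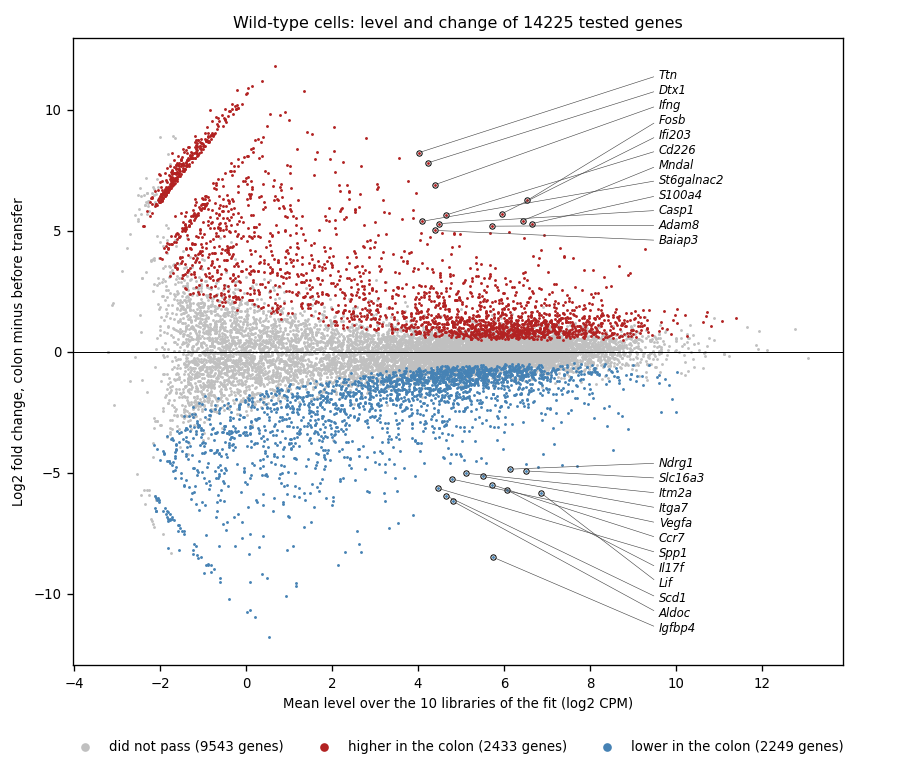
Log2 fold change (colon minus before transfer) of each tested gene against its mean level in log2 CPM. That level is the average of the mean before transfer and the mean in the colon, over the 5 wild-type libraries. The axis title names the 10 libraries of the fit in error. Red points are the 2433 genes called higher, blue points the 2249 called lower and grey points the rest, and the circled, named genes are the 12 with the largest change each way, of those with a mean of at least 4 log2 CPM and groups that do not overlap. The slanted rows at low level are genes with few or no counts in 1 stage, whose fitted fold depends on the prior count.

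Among genes with a mean of at least 4 log2 CPM, the 12 largest rises included Ifng, which is described with the cytokines. Ttn, the gene of the giant muscle protein titin (chr2:76703980-76982547 in GRCm38), stood at 0.282 and 1.78 CPM before transfer and 327, 261 and 333 CPM in the colon (log2 fold change 8.22 ± 0.62, edgeR adjusted p = 1.15e-05). Dtx1 (chr5:120680202-120711927) encodes Deltex-1, a ubiquitin ligase of the Notch pathway that is linked to T cell anergy, and stood at 0.517 and 2.18 CPM before transfer and 366, 302 and 234 CPM in the colon (log2 fold change 7.80 ± 0.60, edgeR adjusted p = 1.26e-05). Both genes were near 0 in the cultured cells and above 200 CPM in each colon library. The activating receptor gene Cd226 rose from 5.07 and 2.23 CPM before transfer to 183, 154 and 216 CPM in the colon (log2 fold change 5.65 ± 0.39, edgeR adjusted p = 8.38e-06). Casp1, whose product cuts the precursors of IL-1b and IL-18, was at 2.30 and 5.06 CPM before transfer and 153, 134 and 145 CPM in the colon (log2 fold change 5.29 ± 0.41, edgeR adjusted p = 1.26e-05). The remaining rises in this set were of Fosb, the sialyltransferase gene St6galnac2, the calcium-binding protein gene S100a4, the surface protease gene Adam8, Baiap3, and Ifi203 and Mndal, a pair of interferon-inducible HIN-200 genes whose counts are uncertain because family members are similar in sequence. Adam8 was the steadiest of them, at 9.77 and 7.78 CPM before transfer and 366, 315 and 279 CPM in the colon (log2 fold change 5.19 ± 0.25, edgeR adjusted p = 1.61e-06). By difference in CPM, a scale on which long transcripts count for more because length was not divided out, the largest rises were of Malat1, Tnfaip3, B2m, Myh9, H2-K1, Ptprc, Itgal, Il18r1, Ddx5 and Rgs1. Myh9, a non-muscle myosin gene, lost its call without the outlying pair (edgeR adjusted p = 0.062). Malat1, a nuclear long non-coding RNA, lost its call without before-transfer library 1 (log2 fold change 1.45, edgeR adjusted p = 0.054).

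The largest falls ranged from secreted factors to metabolic enzymes. Igfbp4 (chr11:99041244-99054392), which encodes a binding protein of insulin-like growth factors, stood at 419 and 1935 CPM before transfer and 4.85, 3.16 and 1.87 CPM in the colon (log2 fold change -8.48 ± 0.72, edgeR adjusted p = 2.33e-05). Lif, a cytokine gene of the IL-6 family, was at 1339.7 and 531 CPM before transfer and 20.2, 14.4 and 14.3 CPM in the colon (log2 fold change -5.84 ± 0.41, edgeR adjusted p = 8.43e-06). Itm2a, a membrane protein gene of activated and developing T cells, was at 165 and 228 CPM before transfer and 5.55, 5.61 and 7.06 CPM in the colon (log2 fold change -5.02 ± 0.22, edgeR adjusted p = 8.42e-07). For Igfbp4 and Lif the before-transfer libraries differed from each other by over 2-fold, yet both lay far above every colon library. Spp1, the osteopontin gene, fell from 353 and 41.8 CPM before transfer to 2.74, 4.45 and 4.64 CPM in the colon (log2 fold change -5.64 ± 1.03, edgeR adjusted p = 0.00248). Aldoc, Slc16a3, Scd1, Vegfa, Ccr7, Itga7 and Il17f, which return below, and the hypoxia-induced gene Ndrg1 complete the set. By difference in CPM, with the same limit, the 10 largest falls included Pkm, Aldoa, Ldha and Tpi1 of glycolysis, Scd2, Lag3, Malt1 and the tubulin gene Tubb5.

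Gene lists differed widely in the share of members called, as the plot of shares per list shows. Counts of members are to be read against 17.1% higher and 15.8% lower over all genes tested. In several lists only the share of higher members lay near that of all genes. For example, ER folding genes gave 13.3% higher, but 6.67% lower. Lysosome and autophagy genes gave 17.6% higher, but 29.4% lower, and Tfh genes 18.2% and 36.4%.

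**Figure D2:**
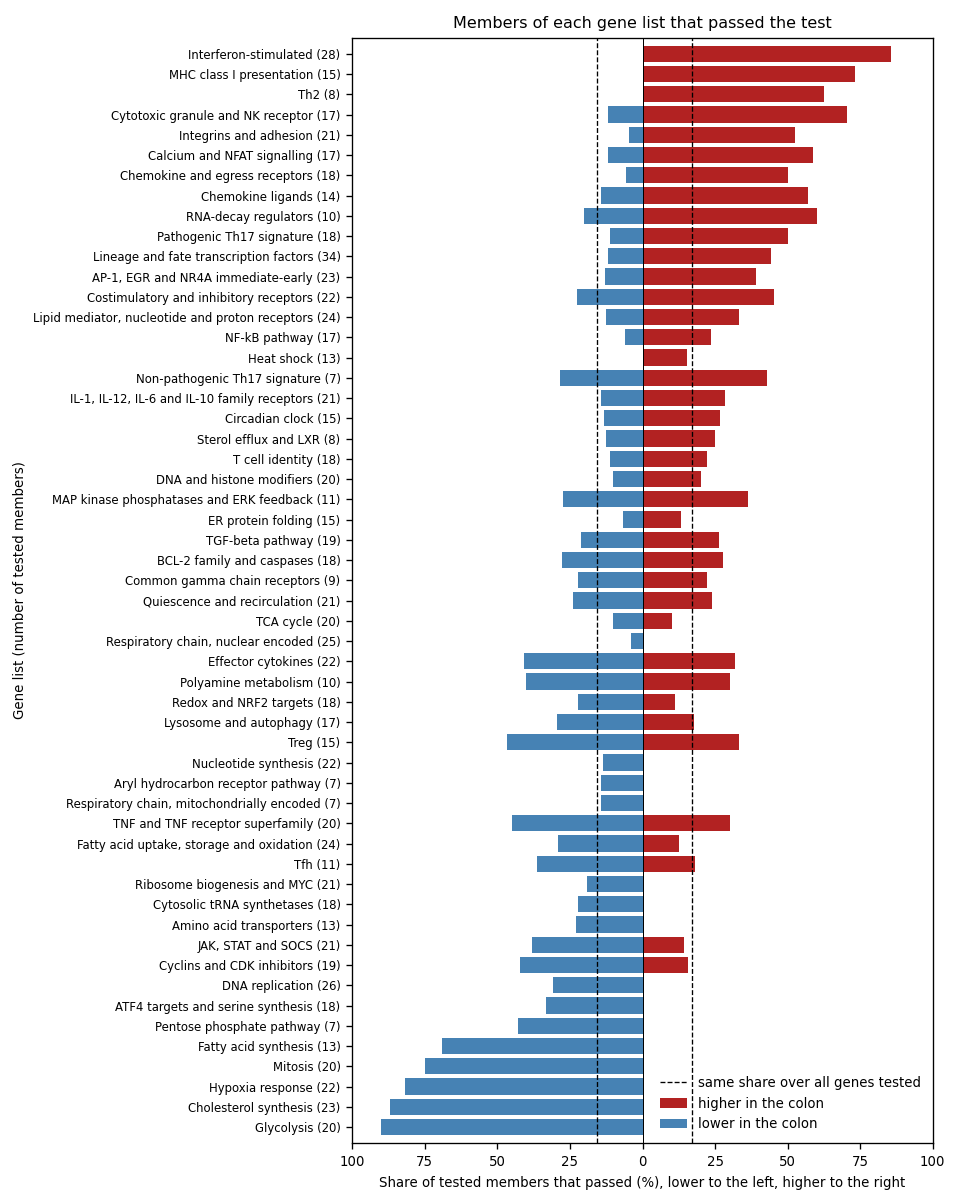
Share of the tested members of each of 54 gene lists that were called lower (blue, to the left) or higher (red, to the right) in the colon; the number of tested members stands beside each name, and the dashed lines mark the shares over all genes tested, 15.8% and 17.1%. Interferon-stimulated and MHC class I genes lie at the top, and glycolysis, cholesterol synthesis and hypoxia-response genes at the bottom.

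The cytokine genes split. Of 22 tested, 7 were higher and 9 lower. Il17f (chr1:20777146-20790617), on whose transcription the cells before transfer had been gated, stood at 890.3 and 213 CPM before transfer and 15.2, 6.94 and 9.76 CPM in the colon (log2 fold change -5.70 ± 0.72, edgeR adjusted p = 0.000275). Il17a, the sister gene, was at 652 and 179 CPM before transfer and 119.8, 48.8 and 46.8 CPM in the colon (log2 fold change -2.53 ± 0.79, edgeR adjusted p = 0.0323), with colon library 0 closest to the lower of the cultured libraries without reaching it. Its call was lost without before-transfer library 0 (edgeR adjusted p = 0.246), colon library 1 (0.0989), colon library 2 (0.108) or the outlying pair (0.0746). Il21, which sustains Th17 and B cell responses, went from 790.2 and 295 CPM before transfer to 26.6, 28.2 and 33.6 CPM in the colon (log2 fold change -4.20 ± 0.39, edgeR adjusted p = 3.77e-05). These Th17 cytokine genes were lower in all colon libraries. Il22, which acts on epithelium, went the opposite way, at 2.07 and 0.545 CPM before transfer and 79.03, 85.8 and 52.9 CPM in the colon (log2 fold change 5.78 ± 0.58, edgeR adjusted p = 6.26e-05). Ifng (chr10:118441046-118445892), the gene of the main Th1 cytokine, stood at 2.07 and 1.73 CPM before transfer and 157, 271 and 256 CPM in the colon (log2 fold change 6.90 ± 0.52, edgeR adjusted p = 1.15e-05), low in both cultures and high in all colon libraries. Csf2, the GM-CSF gene, was at 3.10 and 7.19 CPM before transfer and 20.5, 21.1 and 38.96 CPM in the colon (log2 fold change 2.38 ± 0.50, edgeR adjusted p = 0.00516). The epithelial growth factor gene Areg rose from 2.02 and 1.14 CPM before transfer to 7.52, 18.8 and 34.6 CPM in the colon (log2 fold change 3.68 ± 0.64, edgeR adjusted p = 0.00182), with colon library 0 the lowest of the colon libraries for both Ifng and Areg. Il13, a type 2 cytokine gene, also passed but stayed low, at 0 and 0.198 CPM before transfer and 0.844, 2.40 and 2.98 CPM in the colon, and Il3 had no count in the colon against 1.78 and 1.49 CPM before transfer, at least 27.9-fold lower. Il24 was called lower, but not without before-transfer library 1 (edgeR adjusted p = 0.481) or any 1 colon library. The 9 lower cytokine genes became 5 without the outlying pair.

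Of 34 lineage and fate transcription factor genes, 15 were higher and 4 lower. Tbx21, the gene of the Th1 factor T-bet, stood at 5.02 and 1.83 CPM before transfer and 90.2, 88.3 and 77.4 CPM in the colon (log2 fold change 4.63 ± 0.61, edgeR adjusted p = 0.000351). Its relative Eomes was at 1.27 and 0.942 CPM before transfer and 20.7, 37.5 and 65.9 CPM in the colon (log2 fold change 5.22 ± 0.53, edgeR adjusted p = 6.7e-05). Prdm1, which encodes the terminal differentiation factor Blimp-1, was at 4.37 and 3.57 CPM before transfer and 64.7, 96.3 and 99.9 CPM in the colon (log2 fold change 4.45 ± 0.36, edgeR adjusted p = 1.74e-05). All 3 had colon levels above every cultured library by more than 10-fold. Zfp683, the gene of the residency factor Hobit, rose from 0.188 and 0.248 CPM before transfer to 13.9, 7.43 and 11.6 CPM in the colon (log2 fold change 5.61 ± 0.79, edgeR adjusted p = 0.000513). Epas1, the gene of HIF-2alpha, rose from 0.892 and 2.53 CPM before transfer to 31.1, 41.8 and 44.9 CPM in the colon (log2 fold change 4.52 ± 0.56, edgeR adjusted p = 0.000224). Ikzf2, the Helios gene, rose too, as did Zeb2, which lost its call without the outlying pair. Irf4, which T cell receptor signals induce, fell from 1404 and 649 CPM before transfer to 118, 205 and 204 CPM in the colon (log2 fold change -2.55 ± 0.37, edgeR adjusted p = 0.000689). Id3, an inhibitor of E proteins, also fell, but not without before-transfer library 1 (edgeR adjusted p = 0.238). Among 21 quiescence and recirculation genes 5 were higher and 5 lower. This is 23.8% each way, against 17.1% higher and 15.8% lower over all genes tested. Bach2, which restrains effector differentiation, was at 347 and 171 CPM before transfer and 15.3, 16.6 and 16.1 CPM in the colon (log2 fold change -4.02 ± 0.27, edgeR adjusted p = 7.36e-06). Klf3, a quiescence factor gene, moved upward from 9.06 and 6.34 CPM before transfer to 63.8, 55.00 and 88.1 CPM in the colon (log2 fold change 3.16 ± 0.28, edgeR adjusted p = 2.87e-05). Counts in this list fell to 2 higher without colon library 1, 3 higher without colon library 2, and 3 lower without before-transfer library 1 or colon library 0 or 1.

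**Figure D3:**
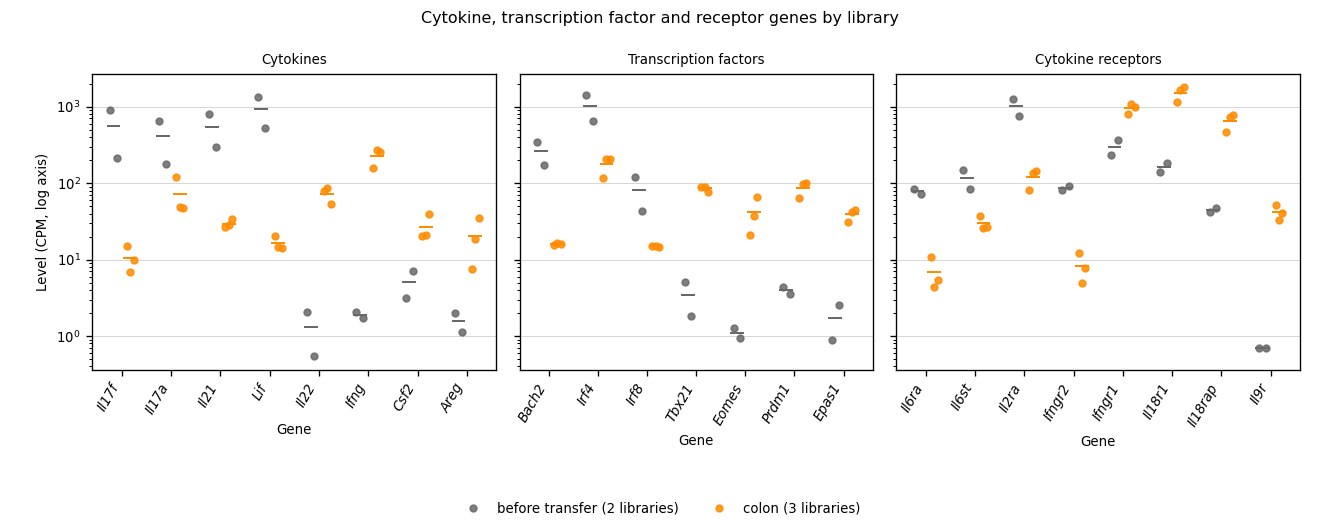
Level in CPM (log axis) of cytokine, transcription factor and cytokine receptor genes in the 2 libraries before transfer (grey) and the 3 from the colon (orange), 1 point per library and a bar at each group mean; levels may be compared within a gene, not between genes. Il17f, Il21, Bach2, Irf4 and Il6ra are lower in all colon libraries, and Ifng, Tbx21, Il18rap and Il9r are higher.

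Cytokine receptor genes changed in both directions. Of 21 receptors of the IL-1, IL-12, IL-6 and IL-10 families, 6 were higher (28.6%) and 3 lower (14.3%). Over all genes tested these shares were 17.1% and 15.8%. Il18r1 and Il18rap encode the paired chains of the IL-18 receptor. The first stood at 140.4 and 183 CPM before transfer and 1148, 1626 and 1787 CPM in the colon (log2 fold change 3.23 ± 0.45, edgeR adjusted p = 0.000469). The second stood at 41.7 and 46.8 CPM before transfer and 472, 726 and 775 CPM in the colon (log2 fold change 3.89 ± 0.38, edgeR adjusted p = 5.02e-05). Il1rl1, the gene of the IL-33 receptor ST2, was at 0.141 and 0.0496 CPM before transfer and 4.71, 8.59 and 13.2 CPM in the colon (log2 fold change 6.42 ± 0.75, edgeR adjusted p = 0.000163). These IL-1 family receptors were higher in all 3 colon libraries. The IL-6 receptor fell in both chains. Il6ra, the ligand-binding chain gene, went from 84.2 and 72.8 CPM before transfer to 10.7, 4.32 and 5.40 CPM in the colon (log2 fold change -3.54 ± 0.39, edgeR adjusted p = 0.000102). Il6st, the shared signalling chain gene, went from 150.5 and 83.6 CPM before transfer to 36.7, 26.2 and 26.4 CPM in the colon (log2 fold change -1.98 ± 0.28, edgeR adjusted p = 0.000594). The chains of the IFN-gamma receptor went opposite ways. Ifngr1, which binds the ligand, stood at 236 and 364 CPM before transfer and 792, 1093 and 992 CPM in the colon (log2 fold change 1.68 ± 0.30, edgeR adjusted p = 0.00229). Ifngr2, which signals, stood at 81.7 and 92.1 CPM before transfer and 12.1, 4.94 and 7.75 CPM in the colon (log2 fold change -3.40 ± 0.33, edgeR adjusted p = 5.29e-05). Among 9 receptors of the common gamma chain family, 2 were higher (Il9r and Il15ra) and 2 lower (Il2ra and Il4ra). This is 22.2% each way, to be read against the same shares over all genes. Il2ra, the inducible chain of the IL-2 receptor, went from 1254 and 760.3 CPM before transfer to 80.2, 137 and 142 CPM in the colon (log2 fold change -3.07 ± 0.29, edgeR adjusted p = 4.76e-05). Il9r stood at 0.704 and 0.694 CPM before transfer and 51.5, 33.2 and 40.4 CPM in the colon (log2 fold change 5.88 ± 0.54, edgeR adjusted p = 3.73e-05). Il7r, the survival receptor gene, was at 489 and 612 CPM before transfer and 824, 1266 and 1458 CPM in the colon and did not pass (edgeR adjusted p = 0.0533, against 0.0383 without colon library 0 and 0.0123 with a term for experiment), although its groups did not overlap.

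In the TGF-beta pathway, 5 of 19 genes were higher (10 without before-transfer library 0, 3 without the outlying pair) and 4 lower. With all libraries, 26.3% of the list was higher and 21.1% lower, against 17.1% and 15.8% over all genes tested. The receptor gene Tgfbr2 stood at 179.9 and 179 CPM before transfer and 527, 569 and 536 CPM in the colon (log2 fold change 1.60 ± 0.18, edgeR adjusted p = 0.000105). Smad3, a signal-carrying SMAD gene, was at 67.2 and 55.8 CPM before transfer and 183, 198 and 207 CPM in the colon (log2 fold change 1.67 ± 0.21, edgeR adjusted p = 0.000268). Smad7, a feedback inhibitor induced by the pathway, was higher as well (log2 fold change 1.05 ± 0.20, edgeR adjusted p = 0.00301), whereas Pmepa1, another TGF-beta-induced inhibitor gene, was lower (log2 fold change -1.39 ± 0.32, edgeR adjusted p = 0.00766). Of 21 JAK, STAT and SOCS genes, 3 were higher (5 without before-transfer library 0) and 8 lower (5 without colon library 1). Those lower include genes known as STAT5 targets. Pim2, a survival kinase gene, went from 136 and 295 CPM before transfer to 30.1, 30.3 and 20.3 CPM in the colon (log2 fold change -3.00 ± 0.32, edgeR adjusted p = 9e-05). Socs2, a feedback inhibitor gene, went from 163 and 240.1 CPM before transfer to 43.3, 49.9 and 40.8 CPM in the colon (log2 fold change -2.17 ± 0.21, edgeR adjusted p = 5.02e-05). All 3 colon libraries lay below both cultured libraries for each. Stat5a itself fell (log2 fold change -1.76, edgeR adjusted p = 6.6e-05), and Stat3 had a log2 fold change of -0.54 and did not pass (edgeR adjusted p = 0.0724, against 0.0142 without before-transfer library 1).

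Homing receptor genes were mostly higher among those that passed. Of 18 chemokine and egress receptor genes, 9 were higher and 1 lower. The fall was of Ccr7, the lymph node homing receptor gene, at 213 and 522 CPM before transfer and 8.37, 8.14 and 8.03 CPM in the colon (log2 fold change -5.49 ± 0.42, edgeR adjusted p = 1.19e-05). Ccr2, a receptor for inflammatory chemokines, stood at 15.03 and 20.3 CPM before transfer and 564, 409.8 and 389.6 CPM in the colon (log2 fold change 4.68 ± 0.51, edgeR adjusted p = 9.84e-05). Cxcr3, which binds interferon-induced chemokines, was at 0.470 and 2.03 CPM before transfer and 180.3, 169 and 147 CPM in the colon (log2 fold change 7.05 ± 0.52, edgeR adjusted p = 1.1e-05). In these genes no cultured library came near a colon library. Cxcr6, found on tissue-resident T cells, rose from 31.7 and 22.5 CPM before transfer to 558, 561 and 397 CPM in the colon (log2 fold change 4.22 ± 0.29, edgeR adjusted p = 7.36e-06). Ccr9, the gut homing receptor gene, was at 0.141 and 0.149 CPM before transfer and 32.6, 27.5 and 53.3 CPM in the colon (log2 fold change 7.96 ± 0.78, edgeR adjusted p = 5.18e-05). Ccr8 and Cx3cr1 were also higher, while Ccr6, the classical Th17 receptor gene, stood at 57.7 and 7.19 CPM before transfer and 127, 40.3 and 68.6 CPM in the colon with overlapping groups and did not pass (edgeR adjusted p = 0.22). Within each experiment every colon library lay above the culture. It was called higher with a term for experiment (log2 fold change 1.85, edgeR adjusted p = 0.018). Without before-transfer library 0, which leaves 1 culture library, its log2 fold change was 3.465. S1pr1, which guides exit from tissue, was at 83.4 and 253 CPM before transfer and 215, 194 and 217 CPM in the colon (edgeR adjusted p = 0.584, against 0.0317 without before-transfer library 1). Of 14 chemokine ligand genes, 8 were higher, but 3 without before-transfer library 1, and 2 lower, but 1 without either before-transfer library. Ccl5, made by effector T cells, stood at 1.36 and 11.9 CPM before transfer and 202, 228 and 166 CPM in the colon (log2 fold change 4.90 ± 0.81, edgeR adjusted p = 0.00141). Ccl1 had no count before transfer and stood at 15.7, 15.5 and 15.6 CPM in the colon, at least 216-fold higher against a floor of 3 counts over the group. Ccl20, the ligand of CCR6, was lower at 252 and 29.9 CPM before transfer and 7.80, 5.70 and 6.99 CPM in the colon (log2 fold change -4.37 ± 0.91, edgeR adjusted p = 0.0049) and lost its call without before-transfer library 0 (edgeR adjusted p = 0.0584). The ligands Cxcl2, Cxcl3, Cxcl9 and Cxcl16 rose alongside the myeloid markers, and the part of myeloid RNA in them was not tested; all but Cxcl9 lost their call without before-transfer library 1.

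Integrins and adhesion genes gave 11 of 21 higher and 1 lower (2 lower without before-transfer library 0). That call was lost without before-transfer library 1. Itgae encodes the CD103 chain that binds E-cadherin and stood at 19.6 and 7.09 CPM before transfer and 357, 402 and 467 CPM in the colon (log2 fold change 4.93 ± 0.53, edgeR adjusted p = 9.46e-05). Itga1, a collagen-binding chain gene, was at 0.141 and 0.248 CPM before transfer and 43.6, 49.8 and 57.8 CPM in the colon (log2 fold change 7.98 ± 0.36, edgeR adjusted p = 8.42e-07). Itga2, another, was at 1.74 and 0.743 CPM before transfer and 47.2, 51.8 and 55.98 CPM in the colon (edgeR adjusted p = 3.54e-05). In each of these 3 genes the colon libraries lay more than 10-fold above the cultured ones. Itgal, the LFA-1 alpha chain gene, was already high and rose further, from 678 and 451 CPM before transfer to 1954, 2011 and 1849 CPM in the colon (log2 fold change 1.78 ± 0.23, edgeR adjusted p = 0.000336).  The laminin-binding chain gene Itga7 went down, from 97.7 and 546 CPM before transfer to 7.87, 12.1 and 7.06 CPM in the colon (log2 fold change -5.15 ± 0.85, edgeR adjusted p = 0.00133); it was not in the adhesion list and is named for the size of its change. The gut homing chain gene Itgb7 stood at 301 and 655 CPM before transfer and 1173, 1025 and 638 CPM in the colon and did not pass (edgeR adjusted p = 0.0596, against 0.0125 without before-transfer library 1 and 0.04 without colon library 2).

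**Figure D4:**
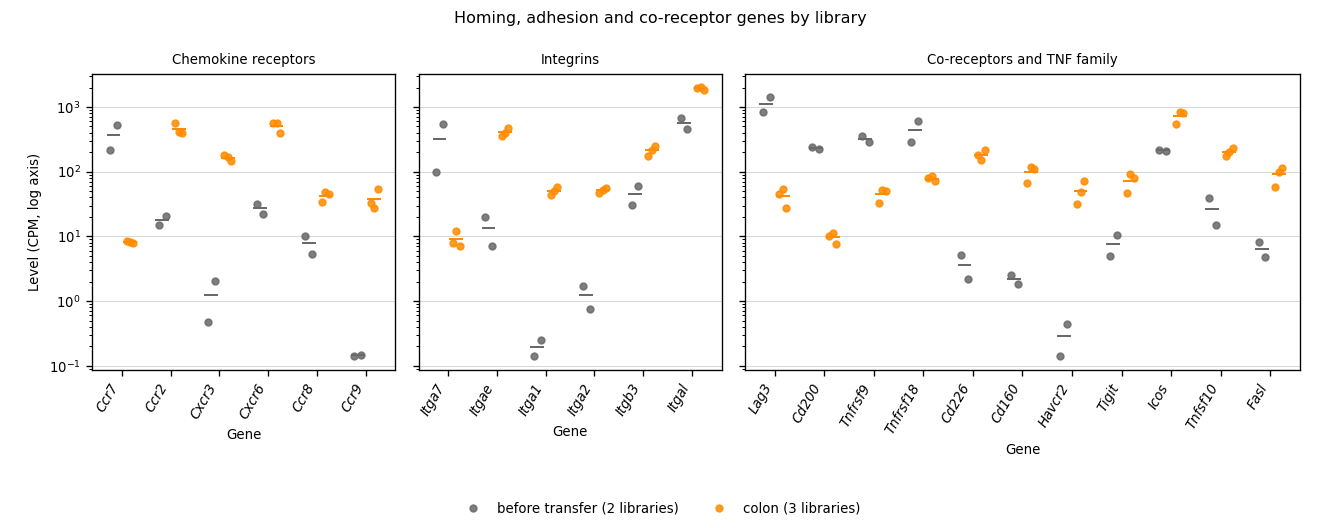
Level in CPM (log axis) of chemokine receptor, integrin and co-receptor genes in the 2 libraries before transfer (grey) and the 3 from the colon (orange), 1 point per library and a bar at each group mean. Ccr7, Itga7, Lag3, Cd200, Tnfrsf9 and Tnfrsf18 are lower in all colon libraries and the other genes shown are higher.

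Inhibitory receptors did not move as 1 group. Of 22 costimulatory and inhibitory receptor genes, 10 were higher and 5 lower. Havcr2, the TIM-3 gene, stood at 0.141 and 0.446 CPM before transfer and 31.4, 48.9 and 71.3 CPM in the colon (log2 fold change 7.41 ± 0.53, edgeR adjusted p = 8.94e-06). Cd160 was at 2.49 and 1.83 CPM before transfer and 67.8, 118 and 109.8 CPM in the colon (log2 fold change 5.51 ± 0.60, edgeR adjusted p = 9.69e-05). Tigit, which competes with CD226 for ligands, was at 4.98 and 10.4 CPM before transfer and 46.3, 90.7 and 81.2 CPM in the colon (log2 fold change 3.24 ± 0.44, edgeR adjusted p = 0.0004). Against these rises, Lag3, which binds MHC class II, fell from 831 and 1411 CPM before transfer to 44.6, 54.2 and 27.2 CPM in the colon (log2 fold change -4.74 ± 0.33, edgeR adjusted p = 8.43e-06). Cd200 fell from 243 and 228 CPM before transfer to 10.3, 11.3 and 7.68 CPM in the colon (log2 fold change -4.59 ± 0.26, edgeR adjusted p = 3.32e-06). The costimulator gene Icos was higher (log2 fold change 1.75 ± 0.29, edgeR adjusted p = 0.00148), and Ctla4 stood at 1968 and 1233 CPM before transfer and 602, 1439 and 1847 CPM in the colon with overlapping groups and did not pass (edgeR adjusted p = 0.622). Klrg1, a receptor of terminal effector cells, had no count before transfer and stood at 5.98, 11.04 and 7.47 CPM in the colon, at least 113-fold higher. In the TNF family, 6 of 20 genes were higher and 9 lower. The death ligand gene Fasl rose from 8.12 and 4.86 CPM before transfer to 58.01, 100.2 and 114 CPM in the colon (log2 fold change 3.80 ± 0.37, edgeR adjusted p = 5.02e-05). Tnfsf10, the gene of the death ligand TRAIL, rose from 38.7 and 15.1 CPM before transfer to 178, 199 and 232 CPM in the colon (log2 fold change 2.91 ± 0.36, edgeR adjusted p = 0.000231). The costimulatory receptor gene Tnfrsf9 (4-1BB) fell from 351 and 285 CPM before transfer to 32.9, 52.4 and 51.2 CPM in the colon (log2 fold change -2.80 ± 0.24, edgeR adjusted p = 2.71e-05). Another, Tnfrsf18 (GITR), fell from 286 and 610.3 CPM before transfer to 79.5, 84.9 and 70.6 CPM in the colon (log2 fold change -2.52 ± 0.30, edgeR adjusted p = 0.000177). The ligand genes Tnfsf9 (for 4-1BB) and Tnfsf4 (for OX40) and the memory marker gene Cd27 were lower too.

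Of 17 cytotoxic granule and NK receptor genes, 12 were higher and 2 lower. The 2 were 1 without either before-transfer library or without colon library 0 or 1. Gzma, a granule protease gene, stood at 0.517 and 0.991 CPM before transfer and 39.9, 98.7 and 141 CPM in the colon (log2 fold change 6.94 ± 0.90, edgeR adjusted p = 0.000318). Gzmb, another, was at 7.14 and 14.7 CPM before transfer and 115, 152 and 224 CPM in the colon (log2 fold change 3.90 ± 0.41, edgeR adjusted p = 8.13e-05). Nkg7, a granule protein gene of cytotoxic cells, was at 3.10 and 10.2 CPM before transfer and 140.2, 139 and 117 CPM in the colon (log2 fold change 4.32 ± 0.46, edgeR adjusted p = 8.18e-05). Colon library 0 held the least Gzma and Gzmb of the colon libraries, and all 3 lay above both cultures. Gzmk had 1 count before transfer, in library 1, and stood at 31.2, 57.7 and 70.5 CPM in the colon (edgeR adjusted p = 8.68e-06). Among them Serpinb9, which protects cells from granzyme B, also rose, from 4.23 and 5.40 CPM before transfer to 50.1, 63.01 and 68.2 CPM in the colon (log2 fold change 3.65 ± 0.38, edgeR adjusted p = 7.73e-05). Markers of CD8, NK and gamma-delta T cells moved beside these genes: of 6 tested 4 were higher and 1 lower, Cd8b1, whose call was lost without before-transfer library 1 or any 1 colon library (2 were lower without before-transfer library 0). Their summed level lay between 41.2 and 92.2 CPM before transfer and between 224 and 321 CPM in the colon. Of the 4 higher genes, 3 encode constant regions of the gamma chain of the gamma-delta receptor. Tcrg-C1 stood at 7.19 and 6.20 CPM before transfer and 92.6, 99.5 and 139.9 CPM in the colon (log2 fold change 4.05 ± 0.46, edgeR adjusted p = 0.000137). Tcrg-C2 stood at 1.88 and 1.93 CPM before transfer and 106, 84.8 and 139 CPM in the colon (log2 fold change 5.85 ± 0.63, edgeR adjusted p = 9.67e-05). These genes resemble each other, so counts may be split between them. Cd8a stood at 20.99 and 36.98 CPM before transfer and 12.3, 13.9 and 16.4 CPM in the colon and did not pass (edgeR adjusted p = 0.0541, against 0.0258 without before-transfer library 0 and 0.00844 with a term for experiment). The colon sort was for CD4+ TCRb+ cells, and the colon libraries also held transcripts of other cells, given above. The part of CD8, NK and gamma-delta T cells in the granule genes was not tested.

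Immediate-early genes, which a stimulus switches on within minutes, changed in part. Of 23 AP-1, EGR and NR4A genes, 9 were higher and 3 lower, but 1 lower without before-transfer library 0 or colon library 1 or 2. The genes of 3 AP-1 subunits were high in every colon library. Fos stood at 34.8 and 51.6 CPM before transfer and 697, 805 and 533 CPM in the colon (log2 fold change 3.97 ± 0.36, edgeR adjusted p = 3.16e-05). Fosb was at 11.1 and 10.8 CPM before transfer and 469, 1142 and 883 CPM in the colon (log2 fold change 6.25 ± 0.65, edgeR adjusted p = 7.73e-05). Jun was at 182 and 139 CPM before transfer and 903, 1543 and 1906 CPM in the colon (log2 fold change 3.17 ± 0.45, edgeR adjusted p = 0.000518). Nr4a1 and Egr2, members that T cell receptor signals can induce, were added after their values were seen. Nr4a1 stood at 363 and 247 CPM before transfer and 205, 328 and 321 CPM in the colon, with overlapping groups (edgeR adjusted p = 0.828). Egr2 stood at 76.9 and 32.1 CPM before transfer and 43.6, 38.9 and 43.7 CPM in the colon, also with overlap (edgeR adjusted p = 0.524). Of 13 heat shock genes tested 2 were higher (4 without before-transfer library 0) and 0 lower (1 without before-transfer library 1). The 2 higher genes were 15.4% of the list, against 17.1% over all genes tested. They are a pair of inducible chaperone genes so alike that reads may be split between them. Hspa1a stood at 5.26 and 2.13 CPM before transfer and 41.8, 74.8 and 31.3 CPM in the colon (log2 fold change 3.73 ± 0.56, edgeR adjusted p = 0.000829). Hspa1b stood at 3.90 and 3.67 CPM before transfer and 97.4, 140.0 and 66.5 CPM in the colon (log2 fold change 4.74 ± 0.49, edgeR adjusted p = 7.39e-05). Of 11 MAP kinase phosphatase and ERK feedback genes 4 were higher and 3 lower. Dusp1, a phosphatase gene of the immediate-early kind, stood at 22.5 and 43.9 CPM before transfer and 246, 447 and 512 CPM in the colon (log2 fold change 3.60 ± 0.49, edgeR adjusted p = 0.000419). The ERK inhibitor gene Spry1 stood at 31.9 and 38.7 CPM before transfer and 3.02, 2.36 and 2.56 CPM in the colon (log2 fold change -3.74 ± 0.29, edgeR adjusted p = 1.3e-05). The higher count was 2 without before-transfer library 0 or colon library 1 or 2, and the lower count 5 without before-transfer library 1.

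Of 17 NF-kB genes 4 were higher and 1 lower (2 without before-transfer library 0). The 1 was Bcl3, a call lost without before-transfer library 1. Tnfaip3, the gene of the inhibitor A20, stood at 188 and 119.6 CPM before transfer and 1314, 3527 and 3787 CPM in the colon (log2 fold change 4.22 ± 0.63, edgeR adjusted p = 0.000724), with colon library 0 well under the other two; within experiment 1 its log2 difference was 2.80 and within experiment 2 it was 4.93. The subunit gene Nfkb1 did not pass (log2 fold change 0.01, edgeR adjusted p = 0.981). Rgs1, which dampens chemokine receptor signals, went from 159.8 and 91.5 CPM before transfer to 793, 1656 and 1979 CPM in the colon (log2 fold change 3.55 ± 0.50, edgeR adjusted p = 0.000556). Of 17 calcium and NFAT genes 10 were higher (6 without the outlying pair) and 2 lower (0 without before-transfer library 1). The calcium channel gene Itpr2 stood at 64.8 and 64.5 CPM before transfer and 267, 223 and 248 CPM in the colon (log2 fold change 1.93 ± 0.26, edgeR adjusted p = 0.000424). The calcineurin gene Ppp3ca was at 27.7 and 43.3 CPM before transfer and 105, 107 and 115 CPM in the colon (log2 fold change 1.62 ± 0.23, edgeR adjusted p = 0.000491). Of 10 RNA-decay regulators 6 were higher, but 3 without before-transfer library 1, 2 without colon library 1 or 2 and 1 without the outlying pair, and 2 lower. Those lower were Malt1 and Zc3h12d. Malt1, the gene of a protease that cuts Regnase-1, stood at 1717 and 591 CPM before transfer and 163, 168 and 226 CPM in the colon (log2 fold change -2.63 ± 0.36, edgeR adjusted p = 0.00043). Zc3h12d, which encodes a relative of Regnase-1, stood at 378 and 400.3 CPM before transfer and 99.1, 107 and 101 CPM in the colon (log2 fold change -1.92 ± 0.19, edgeR adjusted p = 5.02e-05).

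Of the lists other than markers of other cells, interferon-stimulated genes had the largest share of higher members, 24 of 28 with 0 lower, and a median log2 fold change of 2.80 (-0.02 over all genes tested). Without before-transfer library 0, 1 of them was called lower. The guanylate-binding protein gene Gbp4, part of cell-autonomous defence, stood at 23.2 and 29.3 CPM before transfer and 372, 369 and 484 CPM in the colon (log2 fold change 3.96 ± 0.25, edgeR adjusted p = 5.32e-06). Gbp9 was at 5.26 and 5.25 CPM before transfer and 132, 138 and 194 CPM in the colon (log2 fold change 4.87 ± 0.27, edgeR adjusted p = 2.94e-06). Antiviral genes were called higher from a low level. Rsad2, the viperin gene, had 3 counts in all before transfer and stood at 0.0939 and 0.0496 CPM before transfer and 6.68, 5.52 and 6.92 CPM in the colon (edgeR adjusted p = 3.49e-05). Oasl2 was at 0 and 0.347 CPM before transfer and 10.5, 16.02 and 17.4 CPM in the colon (log2 fold change 6.37 ± 0.88, edgeR adjusted p = 0.000469). None of these had overlapping groups. Gbp2, in contrast, stood at 144 and 381 CPM before transfer and 136, 163 and 160.1 CPM in the colon and did not pass (edgeR adjusted p = 0.14), except as lower without before-transfer library 0 (0.0122) or with a term for experiment (0.0487). Of 15 MHC class I genes, 11 were higher and 0 lower (1 lower without before-transfer library 0). Nlrc5, the transactivator of the class I genes, stood at 65.04 and 79.95 CPM before transfer and 757, 729 and 746 CPM in the colon (log2 fold change 3.36 ± 0.30, edgeR adjusted p = 3.27e-05). B2m, the light chain gene, was at 738 and 1232 CPM before transfer and 3467, 2909 and 2792 CPM in the colon (log2 fold change 1.63 ± 0.27, edgeR adjusted p = 0.00148). The heavy chain gene H2-K1 was at 669 and 1414 CPM before transfer and 3221, 3045 and 2347 CPM in the colon (log2 fold change 1.46 ± 0.35, edgeR adjusted p = 0.00947). Counts of single H2 genes are uncertain, since these genes are alike in sequence.

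The interferon-stimulated response element, searched on both strands as GAAA, any 2 bases and GAAA again, is a binding site of interferon-activated transcription factors. It lay in 12 of 26 promoter windows of the interferon list (46.2%), against 3.44% of all 32851 windows of the RefSeq table (GRCm38.p6, 250 bases before to 50 after each start site), 3.18% of those of tested genes and 5.16% of those of genes called higher. The window of Rsad2 (chr12:26456403-26456702, minus strand) is shown as an example, with the match in capitals, here read from the opposite strand.
Rsad2: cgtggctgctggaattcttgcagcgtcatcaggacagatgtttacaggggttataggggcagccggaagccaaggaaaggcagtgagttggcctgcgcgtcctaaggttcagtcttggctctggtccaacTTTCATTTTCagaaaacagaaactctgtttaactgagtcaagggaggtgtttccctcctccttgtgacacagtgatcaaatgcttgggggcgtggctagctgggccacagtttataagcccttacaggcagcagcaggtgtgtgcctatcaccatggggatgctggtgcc
The match begins 120 bases before the start site. These letters describe the window and show no binding.

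**Figure D5:**
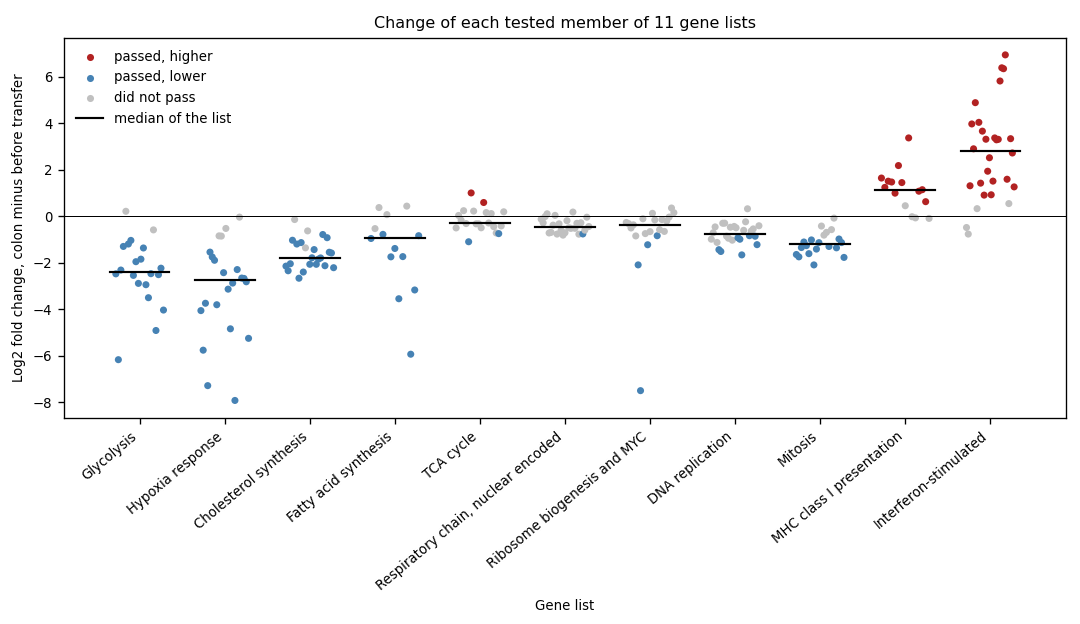
Log2 fold change (colon minus before transfer) of each tested member of 11 gene lists, 1 point per gene, with red for genes called higher, blue for lower and grey for the rest, and a bar at the list median. Glycolysis and hypoxia-response genes lie lowest, the nuclear-encoded respiratory chain lies near 0, and interferon-stimulated genes lie highest. The lowest point of the ribosome biogenesis and MYC list is Mycn, which had no count in the colon, so its fitted fold is no bound.

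Nearly all glycolysis genes fell. Of 20, 0 were higher and 18 lower, with a median log2 fold change of -2.40. Aldoc, an aldolase gene, stood at 179 and 299 CPM before transfer and 3.23, 3.34 and 3.32 CPM in the colon (log2 fold change -6.18 ± 0.44, edgeR adjusted p = 8.43e-06). Slc16a3, the lactate exporter gene, was at 512 and 501 CPM before transfer and 14.9, 22.3 and 12.7 CPM in the colon (log2 fold change -4.92 ± 0.26, edgeR adjusted p = 2.92e-06). The enzyme gene Pkm, of the last step of glycolysis, was at 2198 and 2641 CPM before transfer and 427, 503 and 372 CPM in the colon (log2 fold change -2.48 ± 0.20, edgeR adjusted p = 1.91e-05). In these genes the libraries of each stage lay close together and far from the other stage. The glucose transporter gene Slc2a1 and the first enzyme gene Hk2 had log2 fold changes of -2.52 and -2.55 (edgeR adjusted p = 1.1e-05 and 8.53e-05). The exceptions were Slc16a1 and Gapdh. Slc16a1 had a log2 fold change of -0.596 (edgeR adjusted p = 0.0678, against 0.0462 with a term for experiment). Gapdh has many near-identical pseudogene copies, so its counts are uncertain; it stood at 18.97 and 26.5 CPM before transfer and 20.2, 31.95 and 26.3 CPM in the colon. Of 7 pentose phosphate genes 0 were higher (1 without before-transfer library 0) and 3 lower.

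Hypoxia-response genes, the targets of HIF-1, fell in 18 of 22 with 0 higher and a median of -2.76. P4ha2, a collagen prolyl hydroxylase gene, stood at 83.5 and 96.5 CPM before transfer and 0.773, 0.178 and 0.208 CPM in the colon (log2 fold change -7.93 ± 0.66, edgeR adjusted p = 2.1e-05). Bnip3, a mitophagy receptor gene, was at 110.4 and 125 CPM before transfer and 0.562, 0.712 and 0.969 CPM in the colon (log2 fold change -7.29 ± 0.31, edgeR adjusted p = 8.42e-07). Vegfa, the angiogenic factor gene, was at 186 and 171 CPM before transfer and 2.04, 5.92 and 5.88 CPM in the colon (log2 fold change -5.26 ± 0.66, edgeR adjusted p = 0.000247). Egln3, a HIF-induced prolyl hydroxylase gene, fell from 525 and 549 CPM before transfer to 39.2, 40.4 and 34.9 CPM in the colon (log2 fold change -3.81 ± 0.25, edgeR adjusted p = 7.36e-06). Hif1a, which encodes the factor itself, stood at 2338 and 891 CPM before transfer and 533, 1008 and 1122 CPM in the colon, with overlapping groups, and did not pass (edgeR adjusted p = 0.121). It was called lower with no filter on low counts (edgeR adjusted p = 0.0471). Its log2 fold change was -0.86 with all libraries, -1.41 without before-transfer library 1 and -1.64 without the outlying pair. The core of the hypoxia response element, ACGTG on either strand, lay in 14 of 26 windows of the hypoxia list (53.8%) and 15 of 30 of the glycolysis list (50%), against 19.6% of all windows, 24.9% of those of tested genes and 26.4% of those of genes called lower. It is contained in the E-box CACGTG. The windows of 3 genes with large falls are printed with the core in capitals, those of Slc16a3 (chr11:120948817-120949116, plus strand), P4ha2 (chr11:54100674-54100973, plus strand) and Bnip3 (chr7:138909457-138909756, minus strand).
Slc16a3: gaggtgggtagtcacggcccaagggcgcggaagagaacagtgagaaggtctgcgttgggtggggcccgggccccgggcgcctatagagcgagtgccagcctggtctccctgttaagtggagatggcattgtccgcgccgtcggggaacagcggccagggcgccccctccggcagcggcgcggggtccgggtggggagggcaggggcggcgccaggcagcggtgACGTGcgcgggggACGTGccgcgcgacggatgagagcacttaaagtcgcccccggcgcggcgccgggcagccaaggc
P4ha2: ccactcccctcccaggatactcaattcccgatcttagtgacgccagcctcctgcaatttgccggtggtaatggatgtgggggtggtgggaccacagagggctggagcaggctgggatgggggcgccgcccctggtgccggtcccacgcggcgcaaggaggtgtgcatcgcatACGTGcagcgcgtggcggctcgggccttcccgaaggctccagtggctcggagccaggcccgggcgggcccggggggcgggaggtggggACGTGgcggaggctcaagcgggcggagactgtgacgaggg
Bnip3: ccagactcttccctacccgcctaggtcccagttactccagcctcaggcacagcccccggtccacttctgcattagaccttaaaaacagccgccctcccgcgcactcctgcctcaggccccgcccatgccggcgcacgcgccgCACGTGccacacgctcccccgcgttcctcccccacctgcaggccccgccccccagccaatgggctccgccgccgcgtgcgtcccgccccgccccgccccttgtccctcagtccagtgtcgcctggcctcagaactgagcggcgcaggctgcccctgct
Slc16a3 and P4ha2 each hold the core in 2 places, and in Bnip3 both strands read it from 1 E-box.

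Genes of mitochondrial respiration gave few calls. Of 25 nuclear-encoded respiratory chain genes 0 were higher and 1 was lower, but 11 were lower without before-transfer library 0 and 0 without before-transfer library 1 or colon library 1 or 2. For example Atp5b, an ATP synthase subunit gene, stood at 886 and 792 CPM before transfer and 693, 703 and 658 CPM in the colon (edgeR adjusted p = 0.408). Of 7 mitochondrially encoded genes tested 0 were higher and 1 was lower, mt-Nd6, a call lost without before-transfer library 0 or 1 or colon library 0 or 1; without before-transfer library 0, 5 were higher, and without colon library 0, 2 were. DESeq2 called 5 of them higher with all libraries. The TCA cycle gave 2 of 20 higher (0 without before-transfer library 1 or colon library 1 or 2, 1 without colon library 0) and 2 lower (7 without before-transfer library 0, and 0 or 1 without any 1 of the others). Citrate synthase, Cs, stood at 257 and 233 CPM before transfer and 267, 268 and 213 CPM in the colon (edgeR adjusted p = 0.929), with overlapping groups.

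Lipid synthesis genes fell. Of 23 cholesterol synthesis genes 0 were higher and 20 lower, with a median log2 fold change of -1.80. Hmgcs1, an early enzyme of the pathway, stood at 596 and 305 CPM before transfer and 108, 76.9 and 69.9 CPM in the colon (log2 fold change -2.41 ± 0.30, edgeR adjusted p = 0.000237). Fdps, which makes farnesyl pyrophosphate, was at 97.8 and 119.8 CPM before transfer and 22.6, 14.3 and 14.3 CPM in the colon (log2 fold change -2.67 ± 0.28, edgeR adjusted p = 6.93e-05). Of 13 fatty acid synthesis genes 0 were higher and 9 lower. The 3 largest falls among them were of the desaturase genes Scd1, Fads2 and Scd2. Scd1 stood at 364 and 98.9 CPM before transfer and 7.17, 1.65 and 2.70 CPM in the colon (log2 fold change -5.94 ± 0.65, edgeR adjusted p = 9.95e-05). Scd2 stood at 2142 and 970.4 CPM before transfer and 279, 130.0 and 107 CPM in the colon (log2 fold change -3.18 ± 0.44, edgeR adjusted p = 0.000491). Before-transfer library 0 held more of Hmgcs1, Scd1 and Scd2 than library 1 did, but no colon library reached either. The sterol regulatory element, searched as TCACNCCAC on both strands, lay in 1 of 19 windows of the cholesterol list (5.26%), against 1.24% of all windows, 1.11% of those of tested genes and 2 of 30 windows of the glycolysis list (6.67%). The 1 window of the cholesterol list is of Hmgcs1 (chr13:119690101-119690400, plus strand), with the match in capitals.
Hmgcs1: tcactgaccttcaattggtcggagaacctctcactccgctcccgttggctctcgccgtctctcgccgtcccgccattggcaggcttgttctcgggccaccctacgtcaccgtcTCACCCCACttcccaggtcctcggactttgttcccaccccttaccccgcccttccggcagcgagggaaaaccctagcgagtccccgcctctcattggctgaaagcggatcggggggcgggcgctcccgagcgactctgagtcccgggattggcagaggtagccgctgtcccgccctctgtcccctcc
Of 24 genes of fatty acid uptake, storage and oxidation 3 were higher (1 without the outlying pair) and 7 lower (3 lower without before-transfer library 1, 4 without colon library 1 or 2). Plin2, a lipid droplet coat gene, stood at 56.2 and 55.7 CPM before transfer and 13.5, 21.2 and 13.1 CPM in the colon (log2 fold change -1.81 ± 0.23, edgeR adjusted p = 0.000268). Of 8 sterol efflux and LXR genes 2 were higher and 1 lower, but 1 higher without either before-transfer library or without colon library 1 or 2, and 0 lower without before-transfer library 1 or colon library 0 or 2.

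Growth genes moved in part. Myc stood at 207 and 158 CPM before transfer and 35.4, 41.9 and 50.1 CPM in the colon (log2 fold change -2.10 ± 0.33, edgeR adjusted p = 0.00101). Mycn, with 1.69 and 0.743 CPM before transfer, had no count in the colon, at least 20.7-fold lower. Of the 21 genes of ribosome biogenesis and MYC, 0 were higher and 4 lower (2 without the outlying pair), and the nucleolar gene Ncl, at 1209.5 and 1266 CPM before transfer and 792, 1025 and 1606 CPM in the colon, did not pass (edgeR adjusted p = 0.769). Of 18 ATF4 target and serine synthesis genes 0 were higher and 6 lower, but 2 lower without the outlying pair. Vldlr, a lipoprotein receptor gene induced by ATF4, stood at 120.2 and 77.9 CPM before transfer and 0.492, 0.267 and 0.208 CPM in the colon (log2 fold change -8.26 ± 0.58, edgeR adjusted p = 8.43e-06). The translation inhibitor gene Eif4ebp1 was at 40.9 and 68.6 CPM before transfer and 5.48, 4.18 and 3.53 CPM in the colon (log2 fold change -3.64 ± 0.30, edgeR adjusted p = 1.91e-05). Atf4 itself was at 241 and 344 CPM before transfer and 272, 361 and 269 CPM in the colon (edgeR adjusted p = 0.916). Nucleotide synthesis gave 0 of 22 higher and 3 lower (1 without the outlying pair, 7 with DESeq2), cytosolic tRNA synthetases 0 of 18 higher and 4 lower (2 without colon library 1), and amino acid transporters 0 of 13 (2 without before-transfer library 0) and 3 lower (1 without colon library 1 and 0 without colon library 2). The shares of lower members in these 3 lists lie between 13.6% and 23.1%, against 15.8% over all genes tested. In the ribosome biogenesis and MYC list this share was 19%. Polyamine genes gave 3 of 10 higher and 4 lower; the 3 were 1 without before-transfer library 1 and 0 without colon library 1 or 2, and the 4 were 2 without before-transfer library 1 and 1 without colon library 2. The spermine oxidase gene Smox fell from 125 and 175 CPM before transfer to 38.2, 35.3 and 28.1 CPM in the colon (log2 fold change -2.14 ± 0.30, edgeR adjusted p = 0.000559).

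Many genes of cell division were lower. Of 20 mitosis genes 0 were higher and 15 lower, but 9 lower without before-transfer library 0 or colon library 0; the median log2 fold change was -1.21. Cdc20, an activator of the anaphase-promoting complex, stood at 82.8 and 103 CPM before transfer and 23.2, 26.97 and 14.5 CPM in the colon (log2 fold change -2.10 ± 0.34, edgeR adjusted p = 0.00124). Ube2c, the ubiquitin-conjugating enzyme gene of that complex, was at 117 and 171 CPM before transfer and 39.02, 46.4 and 40.3 CPM in the colon (log2 fold change -1.78 ± 0.29, edgeR adjusted p = 0.0014). Mki67, the Ki-67 gene, overlapped between stages, at 1474 and 375 CPM before transfer and 561, 784 and 1263 CPM in the colon, and did not pass (edgeR adjusted p = 0.911). The cell cycle homology element, searched as TTTGAA on both strands, lay in 13 of 17 windows of the mitosis list (76.5%), against 17.9% of all windows and 12.3% of those of tested genes. It is shown in capitals in the window of Cdc20 (chr4:118437294-118437593, minus strand), 18 bases before the start site.
Cdc20: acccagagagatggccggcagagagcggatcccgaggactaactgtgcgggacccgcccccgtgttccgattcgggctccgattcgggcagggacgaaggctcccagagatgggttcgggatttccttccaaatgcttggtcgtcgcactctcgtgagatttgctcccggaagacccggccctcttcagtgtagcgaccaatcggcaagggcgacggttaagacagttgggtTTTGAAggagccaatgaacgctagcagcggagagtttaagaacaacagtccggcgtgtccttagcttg
Of 26 DNA replication genes 0 were higher (1 without before-transfer library 0) and 8 lower. The 8 were 3 without either before-transfer library or without colon library 0 or 2, 4 without colon library 1 and 1 without the outlying pair. Of 19 cyclins and CDK inhibitors 3 were higher and 8 lower. The p21 gene Cdkn1a fell from 131 and 161 CPM before transfer to 14.9, 30.1 and 24.2 CPM in the colon (log2 fold change -2.66 ± 0.33, edgeR adjusted p = 0.000258). Ccnd1, the cyclin D1 gene, rose from 0.0939 and 0.149 CPM before transfer to 11.1, 5.56 and 2.42 CPM in the colon (log2 fold change 5.64 ± 0.83, edgeR adjusted p = 0.000673). Its colon levels stood in the same order as the summed epithelial markers (919, 299.5 and 234 CPM), whose part was not tested. Cdkn2a, the gene of p16 and p19ARF, rose from 0.282 and 0.694 CPM before transfer to 4.43, 6.68 and 4.64 CPM in the colon (log2 fold change 3.42 ± 0.67, edgeR adjusted p = 0.00367).

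Survival genes were mixed, with 5 of 18 BCL-2 family and caspase genes higher and 5 lower. Bcl2, which blocks mitochondrial death, fell from 536 and 343 CPM before transfer to 139.7, 158 and 155 CPM in the colon (log2 fold change -1.54 ± 0.24, edgeR adjusted p = 0.00104). Bcl2a1b, a related survival gene, rose from 3.38 and 3.32 CPM before transfer to 16.5, 19.6 and 20.8 CPM in the colon (log2 fold change 2.50 ± 0.33, edgeR adjusted p = 0.000332), with the caution that its family has near-identical copies. Receptors for lipid mediators, nucleotides and protons gave 8 of 24 higher and 3 lower (5 lower without before-transfer library 1). P2rx7, the receptor for extracellular ATP, stood at 123 and 65.97 CPM before transfer and 574, 548 and 562 CPM in the colon (log2 fold change 2.57 ± 0.27, edgeR adjusted p = 7.25e-05). Adora2b, a receptor for adenosine, was at 3.94 and 6.49 CPM before transfer and 0.141, 0.178 and 0 CPM in the colon (log2 fold change -5.44 ± 0.74, edgeR adjusted p = 0.000428). So the ATP receptor gene was higher and the adenosine receptor gene lower in all colon libraries.

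Redox genes gave 2 of 18 higher (4 without before-transfer library 0, 1 without before-transfer library 1 or colon library 2) and 4 lower (1 without the outlying pair). The metallothionein gene Mt1, which binds zinc and copper, fell from 22.6 and 93.98 CPM before transfer to 1.48, 2.49 and 1.52 CPM in the colon (log2 fold change -4.97 ± 0.77, edgeR adjusted p = 0.000955). Lysosome and autophagy genes gave 3 of 17 higher and 5 lower (3 lower without before-transfer library 1 or colon library 0 or 1), and ER folding genes 2 of 15 higher (1 without before-transfer library 1 or colon library 1 or 2, 0 without the outlying pair) and 1 lower. DNA and histone modifiers gave 4 of 20 higher (8 without before-transfer library 0, 2 without before-transfer library 1) and 2 lower (5 without the outlying pair). Hdac7, a histone deacetylase gene of T cells, went from 573 and 864 CPM before transfer to 132, 107 and 84.4 CPM in the colon (log2 fold change -2.74 ± 0.27, edgeR adjusted p = 5.02e-05). Clock genes gave 4 of 15 higher (2 without before-transfer library 1 or colon library 2, 1 without colon library 1) and 2 lower (1 without before-transfer library 1 or any 1 colon library, 0 without the outlying pair). Of 7 aryl hydrocarbon receptor genes 0 were higher (1 without before-transfer library 0) and 1 was lower, a call lost without before-transfer library 0 or colon library 2.

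Signature lists of helper subsets overlap with the lists above, so their counts reuse genes already given. In a pathogenic Th17 signature 9 of 18 genes were higher and 2 lower (4 lower without before-transfer library 1), the higher ones including Il22, Csf2, Casp1, Tbx21, Ccl5, Icos and Gzmb, and the lower ones being Il3 and Lag3. A non-pathogenic Th17 signature gave 3 of 7 higher and 2 lower, with the 3 all lost without before-transfer library 1 or colon library 1 or 2, and the 2 being 3 without before-transfer library 1 and 1 without any 1 of the other libraries. Of 15 Treg genes 5 were higher (3 without before-transfer library 1 or colon library 1 or 2) and 7 lower (4 without the outlying pair). Izumo1r, the folate receptor 4 gene, fell from 29.4 and 119 CPM before transfer to 8.72, 9.39 and 6.99 CPM in the colon (log2 fold change -3.14 ± 0.48, edgeR adjusted p = 0.000857). Lrrc32, which anchors latent TGF-beta, fell from 21.98 and 114 CPM before transfer to 0.984, 4.54 and 2.35 CPM in the colon (log2 fold change -4.65 ± 0.89, edgeR adjusted p = 0.00311), a call lost without the outlying pair. Foxp3, the master factor of Treg cells, stood at 6.72 and 4.16 CPM before transfer and 19.3, 23.7 and 23.6 CPM in the colon (log2 fold change 2.03 ± 0.68, edgeR adjusted p = 0.0411). It passed only with all 5 libraries, since leaving out any 1 gave an edgeR adjusted p between 0.0566 and 0.197. Of 11 Tfh genes 2 were higher and 4 lower, and of 8 Th2 genes 5 were higher and 0 lower. Gata3, the main Th2 factor gene, had a log2 fold change of 1.07 (edgeR adjusted p = 0.039) and lost its call without before-transfer library 0 or any 1 colon library.

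The Il6ra-/- cells transferred into the same hosts, with 2 libraries before transfer and 3 from the colon, gave 3836 called genes (27% of those tested) for the same comparison. Of these, 3128 were called in the same direction in wild-type cells, which is 66.8% of the wild-type calls and 81.5% of the others, and 0 in the opposite direction. The test of the difference between the 2 changes called 0 genes with edgeR, 13 with DESeq2, and 377 had an unadjusted edgeR p under 0.05. The edgeR count was 597 without wild-type before-transfer library 0.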

How the data were processed

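Poly(A) RNA-seq libraries of sorted wild-type cells were compared, 2 from before transfer and 3 from the colon. The deposited files hold the authors' whole-number counts of reads per Ensembl gene, with 5 summary lines that were left out. The submitters' processing notes list HTSeq 0.7.2, STAR 2.5.3, DESeq2 1.18.1, R 3.4.3 and SAMtools 0.1.18, and the build GRCm38 (mm10). The labels name a stranded TruSeq mRNA kit; of strand in counting there is only the word reverse in the names of the deposited tables, and no annotation release is given in the sources used here. Symbols and coordinates came from GENCODE M21, which named 37693 of 39179 gene IDs.

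Counts were tested with edgeR 4.0.16 (R 4.3.3; TMM, filterByExpr, quasi-likelihood, Benjamini-Hochberg adjustment at 0.05) in a fit of the 10 libraries of the 4 transfer groups, which share 1 estimate of the spread (6 residual degrees of freedom). A value of x ± y is a log2 fold change and its standard error. CPM were computed with TMM-scaled totals and may be compared within a gene only, since gene length was not divided out. In counts simulated from these libraries over 13885 genes, the fit recovered 8% of 2-fold and 73% of 4-fold changes and called 1 unchanged gene; DESeq2 1.42.0 recovered 31% and 84% and called 47. These percentages hold for the number of genes changed in those counts. Recovery at the share of genes called here was not tested. Alternatives were other size factors, no or a stricter filter, DESeq2, wild-type libraries alone, a replicate block, an experiment term, a test against a 2-fold change, and leaving out each library or both of the outlying pair. Without either before-transfer library, or without the outlying pair, the wild-type group before transfer holds 1 library. The spread then comes from the other groups alone, so calls gained or lost there rest on 1 culture library. Gene counts were at least 14205891 per wild-type library and at least 12718633 per library of the fit.

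The groups and gene lists were chosen with earlier results of these data known, so no list is independent support. Named are the 12 largest changes each way (mean of at least 4 log2 CPM, groups that do not overlap), the 10 largest differences in CPM each way, and per list up to 8 members that passed and 3 that did not. Ccr6, Cd3e, Csf2, Egr2, Foxp3, Il17a, Irf4 and Nr4a1 were added after their values were seen. Of the list members, 27 fell below the filter and 3 had no match. RefSeq promoter windows matched 10490 of the 14225 genes tested. Some genes are not reported here.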

Additional observations from a re-analysis of the deposited data

How the results depend on the processing

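The 2433 higher and 2249 lower genes became 1092 and 842 when changes had to exceed 2-fold, and the lower genes became 1474 without before-transfer library 1 and colon library 2 together. Leaving out 1 wild-type library at a time gave between 1724 and 3341 higher and between 1502 and 2884 lower genes. DESeq2 gave 2929 and 2543, and a fit of the wild-type libraries alone 1674 and 1509; the cause of these differences was not tested. Of the 4682 called genes, 0 changed sign among those tested under other size factors, DESeq2, the block, the experiment term or either filter (the stricter filter tested 12300 genes), 2 did without before-transfer library 1, and 3 did without that library and colon library 2. The numbers 0 and 1 are shared by only 2 pairs of wild-type libraries, whose deviations correlated by -0.143 and 0.0793 across stages. Between wild-type and Il6ra-/- libraries of the same stage and number, the correlation was 0.43 for before-transfer library 0. It was 0.58, 0.237 and 0.183 for colon libraries 0, 1 and 2. The main fit held no term for this pairing, so its p-values ignore it. A replicate block gave 2192 higher and 1807 lower genes. With it the edgeR adjusted p was 0.0273 for Ccr6, 0.0304 for Il7r, 0.0114 for Cd8a and 0.044 for Itgb7, which did not pass without it. The test of the difference from Il6ra-/- cells called 13 genes with no filter on low counts, 13 with DESeq2 and between 0 and 597 with 1 library left out, the 597 without before-transfer library 0. The Il6ra-/- change itself gave 1714 genes beyond 2-fold. Under the 2-fold test, the counts of lower mitosis, DNA replication and cholesterol synthesis genes fell from 15, 8 and 20 to 3, 0 and 11, and that of higher MHC class I genes from 11 to 3. Depth limits the genes with few counts in 1 stage (301 called higher had no count before transfer and 53 called lower none in the colon).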
